A study of Homo sapiens with 23 samples.

Results

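The 10 genes described here are YAP1 and WWTR1, TEAD1 and TEAD4, LATS2, and the target genes CYR61, CTGF, ANKRD1, AMOTL2 and AJUBA, in PC-3 cells made to overexpress PARG. They were chosen by name for their role in the Hippo pathway, with earlier results of these data known. All 10 were found among the 21463 gene rows of the authors' deposited table. PC-3 is an established human prostate cancer cell line, and PARG is the enzyme that takes poly(ADP-ribose) chains off proteins. The cells carried a lentiviral PARG cDNA with cleavable mClover3 under the TetOne doxycycline-inducible promoter, and 2 single clones of them, I4 and H6, were studied. The groups were I4 with 500 ng/ml doxycycline and I4 without it, and H6 with 500 ng/ml doxycycline and H6 without it, each for 72 h, in experiment N at passage 5 and again in experiment B at passage 7. Poly(A)-selected RNA gave 23 libraries in 8 groups, 2 of them from untreated H6 cells of experiment B and 3 from every other group. All 8 groups carried the construct, so an effect of doxycycline itself and an effect of PARG cannot be told apart. Each clone is the descendant of a single cell, so clone and construct insertion cannot be told apart either.

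YAP (YAP1) and TAZ (WWTR1) are transcriptional coactivators that bind no DNA by themselves and act mainly through the TEAD transcription factors. In the Hippo pathway the MST kinases activate the LATS kinases, which phosphorylate YAP and TAZ and keep them out of the nucleus, so that much of the regulation acts on the proteins and is not seen in mRNA levels. CTGF (CCN2) and CYR61 (CCN1), secreted matricellular proteins, and ANKRD1 and AMOTL2 are widely used readouts of YAP and TAZ, and LATS2 and AMOTL2 are both targets and inhibitors of the coactivators.

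TEAD proteins bind the sequence GGAATG. The promoter windows of CTGF and LATS2 are shown because both genes rose in all 4 comparisons and hold this motif, and that of ANKRD1 was added after its values were seen because it holds the motif and was called in none. The stretches are the RefSeq sequence on GRCh38.p14, 5' to 3' on the gene's own strand, all 3 on the minus strand, and capitals mark GGAATG. For CTGF (chr6:131951373-131951622) and ANKRD1 (chr10:90921088-90921337) they cover the 250 bases before the annotated start, and for LATS2 (chr13:21061562-21061686) the stretch is 125 bases long, from 100 before the start to base 25 after it.
CTGF: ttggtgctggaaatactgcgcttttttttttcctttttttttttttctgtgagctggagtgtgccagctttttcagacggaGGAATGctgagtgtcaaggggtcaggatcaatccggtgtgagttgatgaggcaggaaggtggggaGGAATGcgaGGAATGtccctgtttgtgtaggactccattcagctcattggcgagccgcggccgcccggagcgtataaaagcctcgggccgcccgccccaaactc
LATS2: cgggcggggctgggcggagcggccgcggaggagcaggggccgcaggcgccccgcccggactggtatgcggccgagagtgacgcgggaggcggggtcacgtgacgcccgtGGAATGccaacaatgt
ANKRD1: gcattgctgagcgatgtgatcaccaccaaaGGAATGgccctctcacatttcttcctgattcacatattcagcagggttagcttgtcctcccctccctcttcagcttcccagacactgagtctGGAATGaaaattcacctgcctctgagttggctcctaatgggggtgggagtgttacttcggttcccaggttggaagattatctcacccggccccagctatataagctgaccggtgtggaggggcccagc

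The CTGF window held the motif 3 times, at bases -169 to -164, -104 to -99 and -95 to -90 from the start. ANKRD1 held it at -220 to -215 and -128 to -123, and LATS2 held it past its start, at bases 10 to 15. These positions hold for the RefSeq starts. GENCODE v29 starts LATS2 at chr13:21061547, past the end of the printed stretch, so its motif lies before that start. It starts ANKRD1 at chr10:90921276, between its 2 motifs. Windows ran from 250 bases before the start to 50 after it, and GGAATG was searched on both strands, as GGAATG and CATTCC, which do not overlap each other here. It was in 4928 of 35116 windows of this length (14.0%), at least 3 times in 45 of them (0.128%). RefSeq windows were matched for 7 of the 10 genes, with 10 windows; 6 of the 10 windows held the motif, at most 1 for each gene; CYR61, TEAD1 and TEAD4 were not matched. WWTR1, which also rose in all 4 comparisons, held it in neither of its 2 windows, which says only that these letters are not there.

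**Figure D1:**
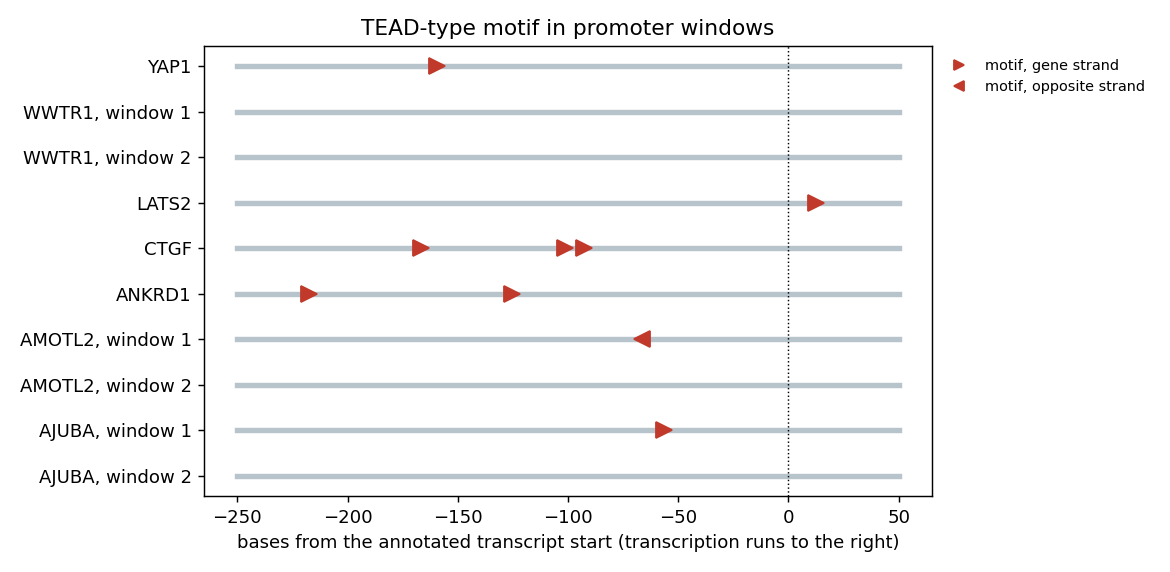
Position of GGAATG in the RefSeq promoter windows of 7 genes, in bases from the annotated transcript start (x axis), a grey line for each window; arrowheads point along the gene's strand or against it. CTGF has 3 motifs, ANKRD1 has 2, YAP1, LATS2, AMOTL2 and AJUBA have 1 and WWTR1 has none.

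The authors' deposited table gives, for doxycycline against none in each clone and experiment, the higher of the group means in RPKM (read density over the exons of a gene, relative to library size), a signed fold and a q-value (an adjusted p). It holds no value per library, so no SD between wells is given, and wells of a group are cultures of 1 clone. The level of the lower group was computed here as the higher mean divided by the fold, which assumes that the fold is the ratio of the means. This fails in very low genes. For KLK3 in I4 in experiment N the computed lower mean was about 0.192 reads per library, less than a single read over its 3 libraries. For the members the assumption was not tested. Where values are given in pairs, the first is of experiment N and the second of experiment B. A gene was called changed at a q under 0.05, and it is said to have risen or fallen with doxycycline only then. The direction of the folds was read from the induced gene PARG, for which the authors' deposited table gives folds of 1.35 and 1.40 in I4 and of 2.15 and 1.99 in H6. Levels of very low genes put the depth at about 32.2 to 43.2 M reads per library in experiment N and 19.1 to 26.5 M reads in experiment B (M, mega). The keratin genes KRT8 and KRT18 reached 25.1 to 127 RPKM in the authors' deposited table, EPCAM 4.77 to 5.66 RPKM, and the E-cadherin gene CDH1 at most 0.394 RPKM. KLK3, the gene of prostate-specific antigen, which PC-3 is known to lack or nearly lack, stood at no more than 0.00695 RPKM there. Of 7 markers of leukocytes, macrophages, endothelium and fibroblasts, CD68 had 16.1 to 27.4 RPKM and COL1A1 6.23 to 17.7 RPKM in the authors' deposited table. Both stood above EPCAM in each comparison. PECAM1 had 0.719 to 1.34 RPKM in the authors' deposited table, and PTPRC, VWF, DCN and COL3A1 stayed at or below 0.188 RPKM. PECAM1 fell in 3 comparisons, COL1A1 fell and COL3A1 rose in 1 each, KRT8 and KRT18 rose in all 4, and EPCAM and CDH1 rose in H6 in experiment N; the part of such markers in the results was not tested. In such bulk RNA, a change in the number of cells with a transcript and a change in transcript per cell cannot be told apart.

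With doxycycline, WWTR1, CTGF and LATS2 rose in all 4 comparisons, and no member fell in all 4. The authors' deposited table calls 5 of the 10 genes in I4 in experiment N, where 15.7% of all genes tested were called: the 3 above rose and TEAD4 and AJUBA fell. In I4 in experiment B, 4 were called, against 14.0% of all genes, and TEAD4 again fell. In H6 the authors' deposited table calls the same 3 in experiment N, against 13.6% of all genes, and 4 in experiment B, against 7.56%, where CYR61 fell. Being called in all 4 with the same sign held for 3 of 10 members and for 556 of the 15063 genes tested in all 4 (3.69%; 1.73% rose in all 4 and 1.97% fell); among the 10324 genes of at least 1 RPKM it held for 4.99%. The members were chosen with earlier results of these data known, and the contrast with these shares was not tested. The median log2 fold of the members lay between 0.004 and 0.073 in the 4 comparisons, against -0.0078 to 0.0082 for the genes of at least 1 RPKM. YAP1, TEAD1, ANKRD1 and AMOTL2 were called in none of the 4.

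**Figure D2:**
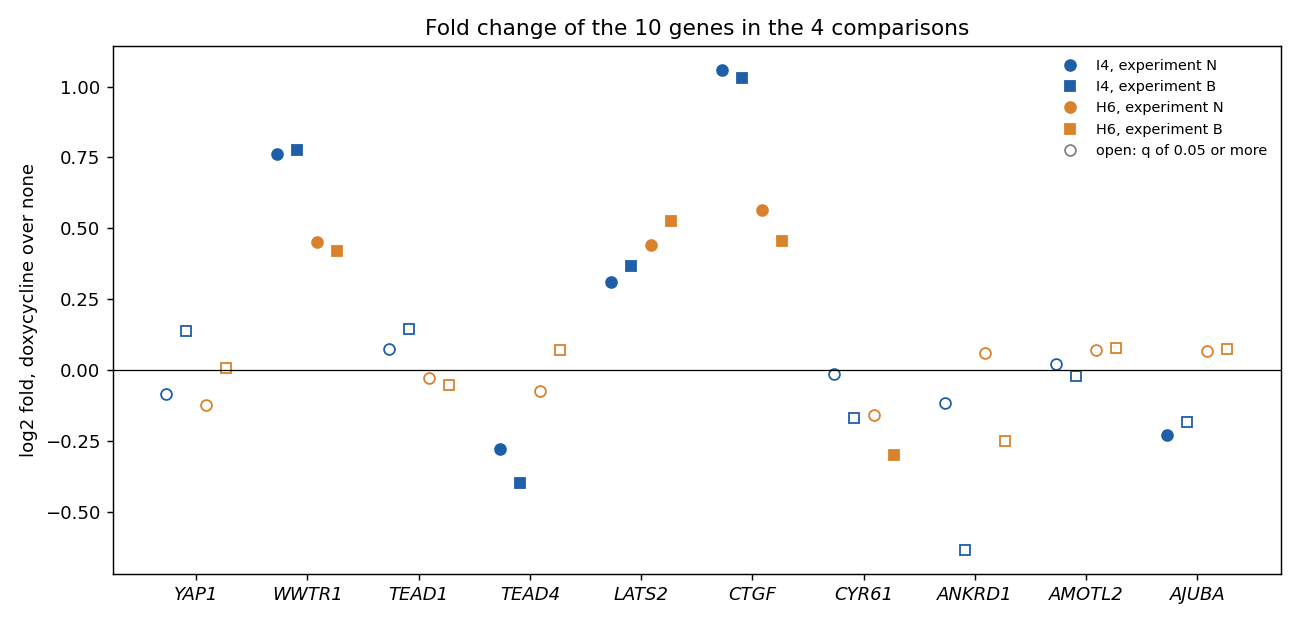
Log2 fold of doxycycline over none (y axis) for the 10 genes; blue points are clone I4 and orange points clone H6, circles experiment N and squares experiment B, and open points have a q of 0.05 or more. WWTR1, LATS2 and CTGF lie above 0 with filled points in all 4 comparisons, while TEAD4 has filled points below 0 in I4.

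The coactivators differed from each other. WWTR1, which encodes TAZ, had 29.9 and 34.1 RPKM in I4 with doxycycline, against 17.6 and 19.9 RPKM without it. In H6 it had 29.8 and 32.2 RPKM with doxycycline, against 21.8 and 24.0 RPKM without it. All 4 treated groups thus lay above all 4 untreated groups. The authors' deposited table gives WWTR1 folds of 1.70 and 1.71 in I4, with q-values listed as 0, and of 1.37 (q = 2.22e-09) and 1.34 (q = 3.66e-06) in H6. The log2 fold of WWTR1 averaged 0.77 ± 0.01 in I4 and 0.44 ± 0.02 in H6 (SD, n = 2 experiments each). Among the 10324 genes of at least 1 RPKM, 69 and 59 genes had a larger log2 fold than WWTR1 in I4, and 215 and 233 did in H6.

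YAP1 had 33.5 and 30.2 RPKM in I4 with doxycycline, against 35.5 and 27.4 RPKM without it. H6 cells had 32.2 and 25.3 RPKM of YAP1 with doxycycline, against 35.1 and 25.2 RPKM without it. Treated and untreated groups overlapped, and the sign of the YAP1 fold changed between experiments in both clones, in H6 only before centring on the median gene, which turns the experiment B value to -0.0012 on the log2 scale. The authors' deposited table lists YAP1 as 1.06-fold lower (q = 0.597) and 1.10-fold higher (q = 0.25) in I4, and 1.09-fold lower (q = 0.314) and 1.00-fold higher (q = 1.00) in H6. Without doxycycline, YAP1 stood above WWTR1 in every clone and experiment, by 35.5 against 17.6 RPKM in I4 in experiment N and by 25.2 against 24.0 RPKM in H6 in experiment B. With doxycycline, WWTR1 was above YAP1 in both clones in experiment B, and YAP1 was above WWTR1 in both in experiment N. These orders were not tested.

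The TEAD factors, which carry the coactivators to DNA, moved little or in 1 clone. TEAD4 had 8.22 and 4.98 RPKM in I4 with doxycycline, against 9.97 and 6.56 RPKM without it. The authors' deposited table gives it as 1.21-fold (q = 0.00513) and 1.32-fold lower (q = 0.000706) there, so it fell in both I4 experiments. H6 cells had 8.41 and 6.39 RPKM of TEAD4 with doxycycline, against 8.87 and 6.08 RPKM without it. The signs of its H6 folds were opposite in the 2 experiments, 1.05-fold lower (q = 0.76) and 1.05-fold higher (q = 1.00) in the authors' deposited table. TEAD4 log2 folds averaged -0.34 ± 0.08 in I4 and -0.0018 ± 0.10 in H6 (SD, n = 2 experiments each).

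TEAD1 had 16.7 and 23.3 RPKM in I4 with doxycycline, against 15.9 and 21.0 RPKM without it, and 16.3 and 20.7 RPKM in H6 with doxycycline, against 16.6 and 21.4 RPKM without it. Its levels differed more between experiments N and B than with doxycycline. The experiments also differed in passage and library protocol, and these parts cannot be told apart. The authors' deposited table lists TEAD1 folds of 1.05 and 1.11 upward in I4 and 1.02 and 1.04 downward in H6, with q-values of 0.704, 0.207, 1.00 and 1.00. TEAD2, a further family member, had 29.8 to 38.6 RPKM as the higher group mean in the authors' deposited table, above TEAD1 and TEAD4 in each comparison, and TEAD3 had 4.02 to 7.40 RPKM. Neither was called in any comparison.

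LATS2, the kinase that phosphorylates YAP and TAZ, had 3.24 and 3.37 RPKM in I4 with doxycycline, against 2.61 and 2.62 RPKM without it. H6 cells had 5.15 and 5.26 RPKM of LATS2 with doxycycline, against 3.79 and 3.65 RPKM without it. Within each clone, both treated groups lay above both untreated ones. The authors' deposited table gives LATS2 as 1.24-fold (q = 0.0429) and 1.29-fold higher (q = 0.00106) in I4 and as 1.36-fold (q = 5.08e-07) and 1.44-fold higher (q = 1.98e-06) in H6. Its log2 fold averaged 0.34 ± 0.04 in I4 and 0.48 ± 0.06 in H6 (SD, n = 2 experiments each), so here H6 had the larger fold. The related kinase gene LATS1 was called in no comparison, with folds of 1.01 to 1.05 upward in the authors' deposited table and q-values of at least 0.862.

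CTGF had the largest rise of the 10 genes in both I4 comparisons and in H6 in experiment N. It had 29.7 and 30.7 RPKM in I4 with doxycycline, against 14.3 and 15.0 RPKM without it, and 30.6 and 30.4 RPKM in H6 with doxycycline, against 20.7 and 22.1 RPKM without it. The 4 treated levels were close together, and the untreated levels were lower in I4 than in H6. The ratio of H6 to I4 for CTGF was 1.03 and 0.988 with doxycycline and 1.45 and 1.47 without it. The authors' deposited table gives CTGF as 2.08-fold and 2.04-fold higher in I4, with q-values listed as 0, and as 1.48-fold (q = 1.82e-13) and 1.37-fold higher (q = 0.00364) in H6. Its log2 fold averaged 1.04 ± 0.02 in I4 and 0.51 ± 0.08 in H6 (SD, n = 2 experiments each). Only 20 and 19 of the 10324 genes had a larger log2 fold in I4, and 98 and 166 did in H6.

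CYR61, from the same CCN family and often read out together with CTGF, did not rise in any comparison. It had 86.7 and 75.1 RPKM in I4 with doxycycline, against 87.5 and 84.5 RPKM without it, and 192 and 165 RPKM in H6 with doxycycline, against 215 and 204 RPKM without it. The treated group was the lower in each comparison. The authors' deposited table lists CYR61 as 1.01-fold (q = 1.00) and 1.13-fold lower (q = 0.1) in I4 and as 1.12-fold (q = 0.427) and 1.23-fold lower (q = 0.00223) in H6, so the call came in the second H6 experiment alone. CYR61 was the most abundant of the 10 transcripts, and its level in H6 was 2.22 and 2.20 times that in I4 with doxycycline and 2.45 and 2.41 times without it.

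**Figure D3:**
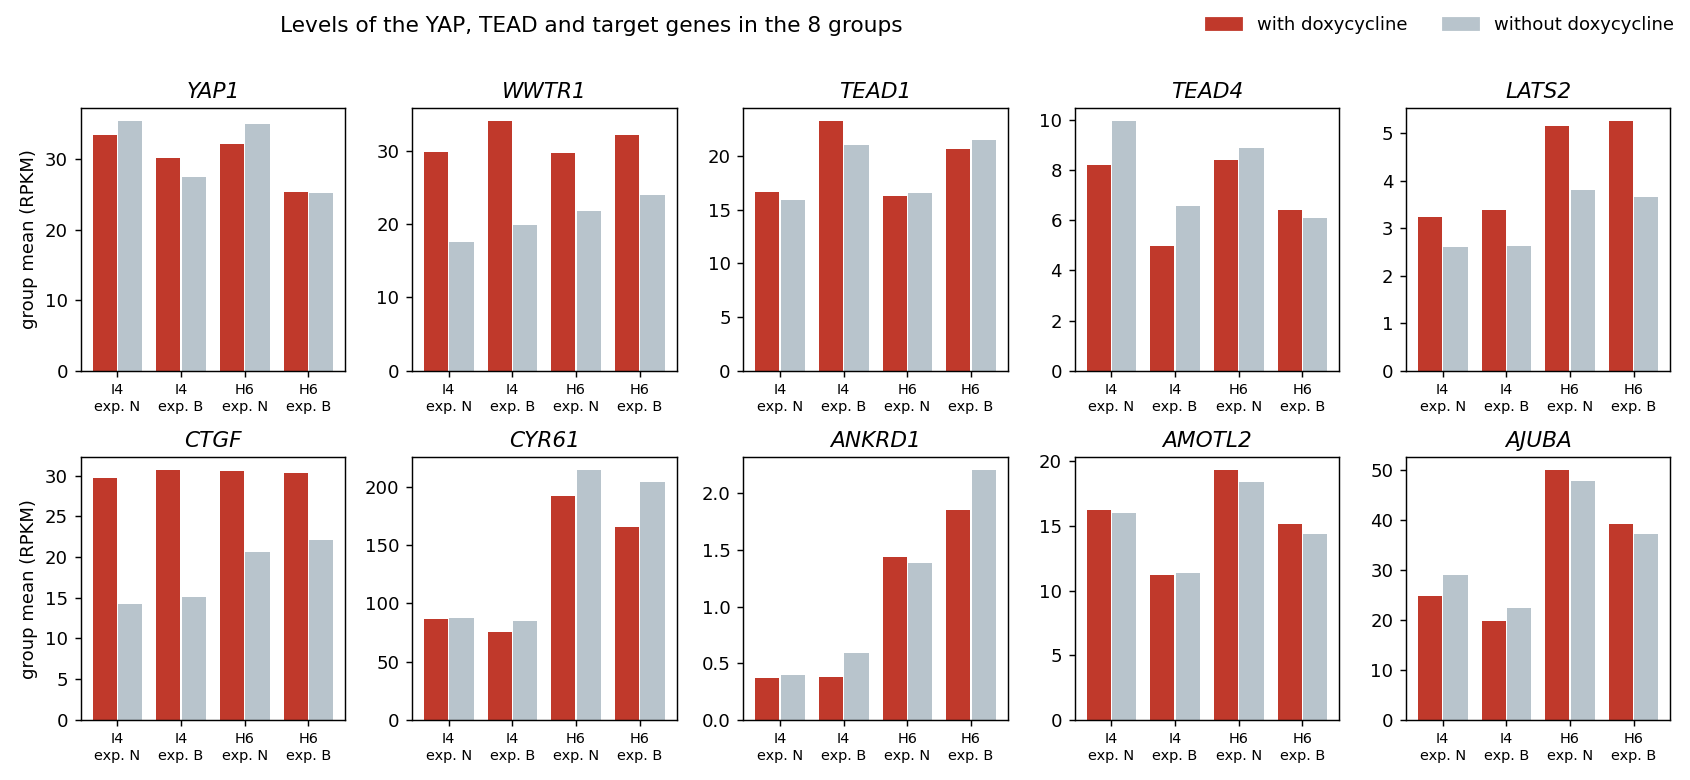
Group mean level in RPKM (y axis, a scale of its own for each gene, from 0) of the 10 genes with doxycycline (red) and without it (grey) in each clone and experiment; the higher bar of a pair is deposited and the lower was computed from the fold. CTGF with doxycycline lies between 29.7 and 30.7 RPKM in all 4 pairs, while CYR61, ANKRD1, AJUBA, LATS2 and AMOTL2 are higher in H6 than in I4 in both experiments, with and without doxycycline.

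ANKRD1, an ankyrin repeat protein of muscle and a sensitive YAP target, was low in I4, with 0.367 and 0.38 RPKM with doxycycline, against 0.398 and 0.59 RPKM without it. In H6 it had 1.44 and 1.85 RPKM with doxycycline, against 1.38 and 2.21 RPKM without it. The lower group means correspond to about 16.4 to 27.1 reads per library in I4 and 84.5 to 101 reads in H6. The largest ANKRD1 fold in the authors' deposited table, 1.55 downward in I4 in experiment B, had a q of 0.307, so it was not called. It rests on the lowest of these means, about 16.4 reads per library. The fold was 1.08 downward in I4 in experiment N and 1.04 upward in H6 in experiment N. In H6 in experiment B it was 1.19 downward (q = 0.666), and none of these was called.

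AMOTL2, an angiomotin that holds YAP in the cytoplasm, changed by at most 1.05-fold in any comparison of the authors' deposited table, with q-values of at least 0.744. It had 16.2 and 11.2 RPKM in I4 with doxycycline, against 16.0 and 11.3 RPKM without it, and 19.3 and 15.1 RPKM in H6 with doxycycline, against 18.4 and 14.4 RPKM without it. AJUBA, a LIM protein that restrains LATS kinases, had 24.7 and 19.8 RPKM in I4 with doxycycline, against 29.0 and 22.4 RPKM without it. In H6 AJUBA had 50.1 and 39.2 RPKM with doxycycline, against 47.9 and 37.2 RPKM without it. The authors' deposited table gives AJUBA as 1.17-fold (q = 0.00905) and 1.13-fold lower (q = 0.0784) in I4, so it fell in experiment N, and as 1.05-fold higher in both H6 experiments (q = 0.75 and 0.931).

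The clones differed in these folds by more than the experiments did for some members. The log2 folds of I4 and H6 did not overlap for 7 of the 10 members (WWTR1, TEAD1, TEAD4, LATS2, CTGF, AMOTL2 and AJUBA), and this held for 45.2% of the 10324 genes of at least 1 RPKM. The differences of I4 minus H6 ranged from -0.34 for TEAD4 to 0.54 for CTGF on the log2 scale, while experiments within a clone differed by a median of 0.10 in I4 and 0.08 in H6 over all these genes. An exact permutation test of 2 experiments against 2 cannot give a two-sided p under 0.333, so no difference between clones was shown by a test. The PARG log2 fold averaged 0.46 ± 0.03 in I4 and 1.05 ± 0.08 in H6 (SD, n = 2 experiments each), so the clone with the smaller PARG fold had the larger folds of CTGF and WWTR1 and the smaller fold of LATS2. Exons of WWTR1, CTGF and YAP1 share 9.45%, 8.34% and 9.97% of their bases with a GENCODE v29 gene on the opposite strand. Libraries of experiment N kept both strands and those of experiment B were strand-specific, per the labels' protocols. The WWTR1 and CTGF rises were called in both. No source used here states how strand was counted, and the part of reads from the opposite strand in these folds was not tested.

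In the untreated I4 cells of experiment N the levels ran, from high to low, CYR61, YAP1, AJUBA, WWTR1, AMOTL2, TEAD1, CTGF, TEAD4, LATS2 and ANKRD1. Levels of untreated I4 cells averaged 86.0 ± 2.11 RPKM for CYR61, 31.4 ± 5.66 RPKM for YAP1, 25.7 ± 4.63 RPKM for AJUBA, 18.8 ± 1.62 RPKM for WWTR1 and 18.5 ± 3.67 RPKM for TEAD1 (SD, n = 2 experiments). CTGF averaged 14.7 ± 0.54 RPKM, AMOTL2 13.7 ± 3.27, TEAD4 8.26 ± 2.41, LATS2 2.61 ± 0.0036 and ANKRD1 0.494 ± 0.136 RPKM in the same cells. WWTR1 and TEAD1 changed order between experiments N and B, and AMOTL2 stood above TEAD1 and CTGF in N and below both in B. Untreated H6 cells averaged 209 ± 7.64 RPKM for CYR61, 42.5 ± 7.55 RPKM for AJUBA and 30.1 ± 6.97 RPKM for YAP1 (SD, n = 2 experiments). WWTR1 averaged 22.9 ± 1.60 RPKM there, CTGF 21.4 ± 1.04, TEAD1 19.0 ± 3.44, AMOTL2 16.4 ± 2.89, TEAD4 7.47 ± 1.97, LATS2 3.72 ± 0.103 and ANKRD1 1.79 ± 0.585 RPKM. The order was that of I4 except that AJUBA stood above YAP1 and CTGF above TEAD1. In H6, WWTR1 stood above CTGF and CTGF above TEAD1 in both experiments, while TEAD1 and AMOTL2 changed order between them. These orders rest on 2 experiments that both genes of a pair share, and they were not tested. Passage and library protocol differed between the experiments, so the SDs of levels also hold those differences.

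Of 29 other Hippo pathway genes, 28 were tested in all 4 comparisons, and the 23 of at least 1 RPKM include kinases, scaffolds, junction proteins and TEAD cofactors. In all 4 comparisons FAT1 rose, MAP4K4 and WWC1 fell and 25 were not called throughout, that is 3 of 28 called against 3.69% of all genes. WWC1, which encodes the upstream scaffold KIBRA, had 6.25 and 5.80 RPKM in I4 with doxycycline, against 11.1 and 9.72 RPKM without it, and 6.77 and 6.28 RPKM in H6 with doxycycline, against 9.03 and 8.23 RPKM without it. The authors' deposited table gives it as lower by 1.78-fold and 1.68-fold in I4 (q listed as 0) and by 1.33-fold (q = 2.87e-07) and 1.31-fold (q = 0.00014) in H6. For MAP4K4, a kinase that can activate LATS beside the MST kinases, the authors' deposited table gives downward folds of 1.53 and 1.32 in I4 and of 1.55 and 1.40 in H6, each with a q of at most 9.98e-08. For FAT1, a giant protocadherin, the authors' deposited table gives upward folds of 1.18 and 1.30 in I4 and of 1.21 and 1.24 in H6, with a q of at most 0.00594. In I4, 4 of the 28 rose and 7 fell in experiment N (15.7% of all genes were called there in either direction), and 7 rose and 4 fell in experiment B (14.0%). In H6, 1 rose and 5 fell in experiment N (13.6%), and 2 rose and 2 fell in experiment B (7.56%). The median of the mean log2 folds of the list was -0.01, against -0.0011 for all genes of at least 1 RPKM. STK4, the MST1 kinase, and MOB1A, a LATS cofactor, were called in no comparison. The related genes STK3 and MOB1B rose in I4 in experiment B, by 1.28-fold (q = 0.0192) and 1.21-fold (q = 0.00251) in the authors' deposited table. SAV1 rose in experiment B in both clones, by 1.18-fold in I4 (q = 0.0144) and 1.19-fold in H6 (q = 0.0421) there.

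**Figure D4:**
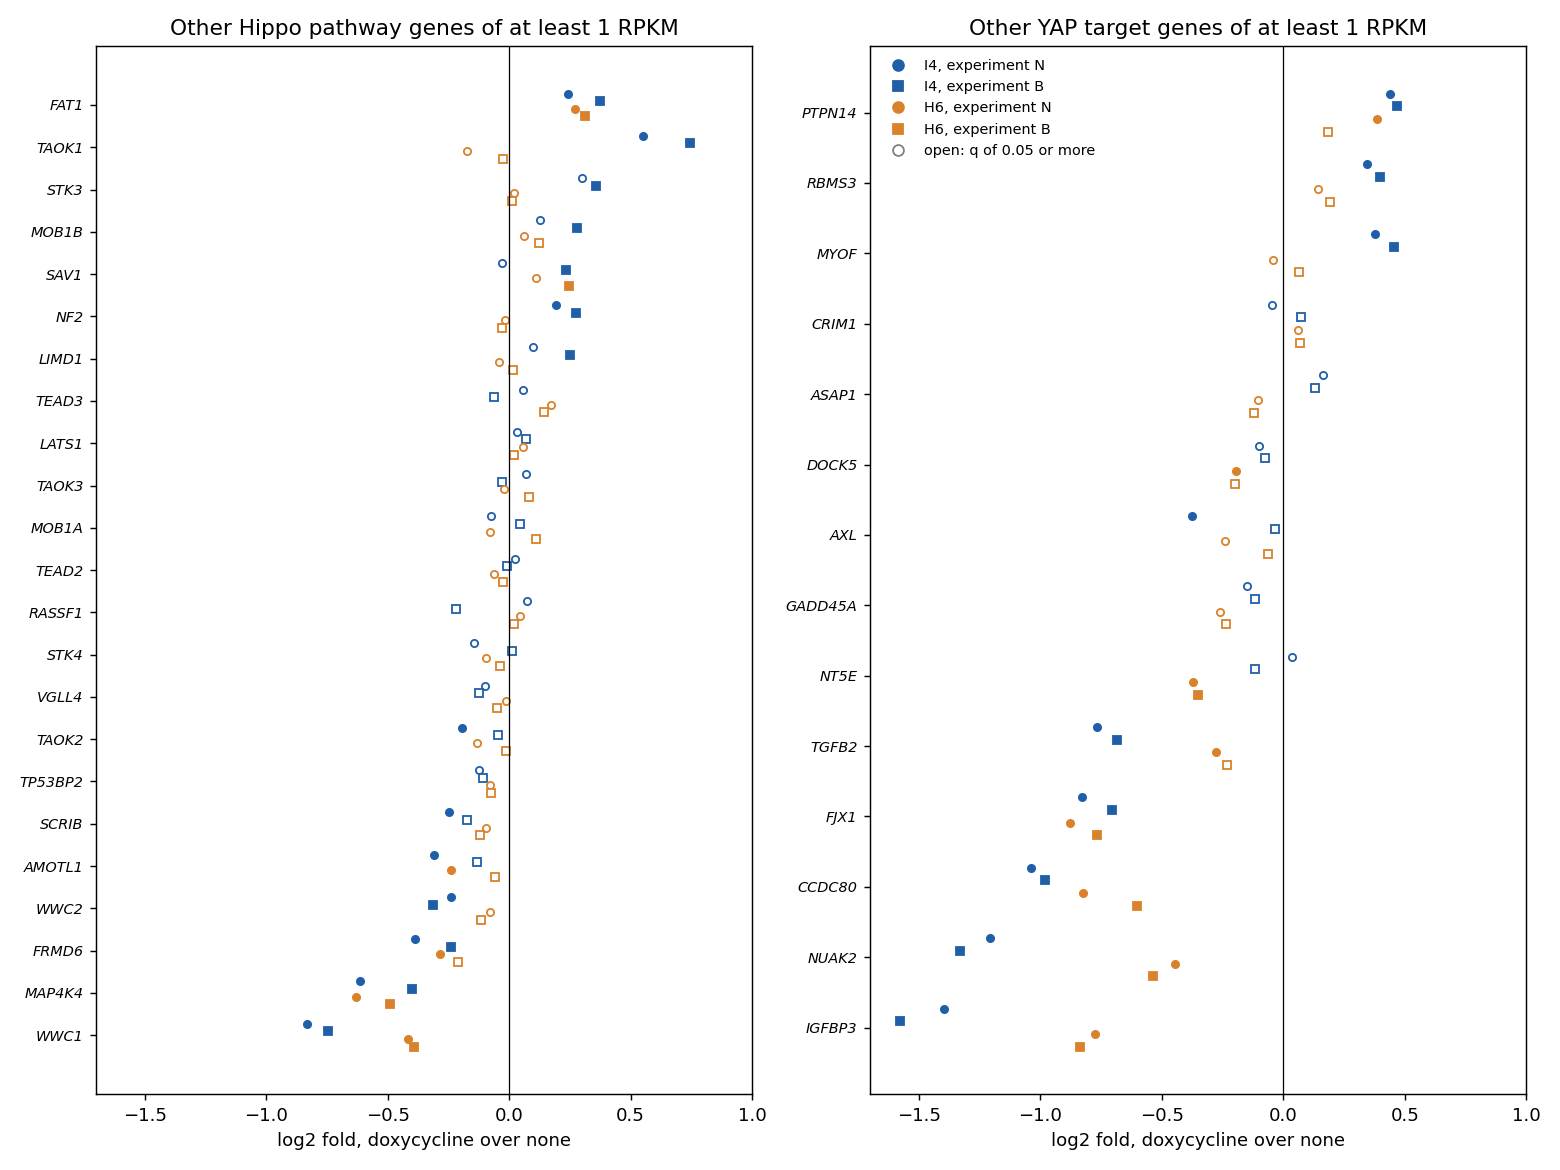
Log2 fold of doxycycline over none (x axis) for other Hippo pathway genes (left) and other YAP target genes (right) of at least 1 RPKM, ordered by their mean; colours and symbols as for the 10 genes, with open points for a q of 0.05 or more. FAT1 lies above 0 and MAP4K4 and WWC1 below 0 with filled points in all 4, and IGFBP3, NUAK2, CCDC80 and FJX1 lie farthest below 0.

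A further 17 genes of a published YAP and TAZ target signature, apart from the members, went the other way from CTGF where they were called in all 4. IGFBP3, NUAK2, CCDC80 and FJX1 fell in all 4 comparisons, none rose, and 12 of the 16 tested in all 4 were not called throughout; 1.97% of all genes fell in all 4. IGFBP3, a binding protein of insulin-like growth factors, had 21.6 and 19.0 RPKM in I4 with doxycycline, against 56.9 and 56.7 RPKM without it, and 80.6 and 74.7 RPKM in H6 with doxycycline, against 138 and 133 RPKM without it, with q-values of at most 1.44e-12 in the authors' deposited table. For NUAK2, an AMPK-related kinase, the authors' deposited table lists downward folds of 2.31 and 2.51 in I4 (q listed as 0) and of 1.36 (q = 1.99e-06) and 1.45 (q = 2.58e-05) in H6. CCDC80, a secreted matrix protein, had downward folds of 1.52 to 2.05 over the 4 comparisons of the authors' deposited table, with q-values of at most 1.7e-12. FJX1, the human relative of the Drosophila kinase four-jointed, had downward folds of 1.63 to 1.84 in the authors' deposited table, with q listed as 0 each time. PTPN14, a phosphatase that binds YAP, rose in 3 comparisons, by 1.36-fold, 1.38-fold and 1.31-fold in the authors' deposited table, and was 1.14-fold higher (q = 0.18) in H6 in experiment B. The transforming growth factor gene TGFB2 fell in 3, with downward folds of 1.70 and 1.61 in I4 and of 1.21 in the first H6 experiment of the authors' deposited table; the second H6 fold was 1.17 downward (q = 0.0575). MYOF and RBMS3 were called higher in both I4 comparisons and in neither of H6, MYOF with folds of 1.30 and 1.37 and RBMS3 with folds of 1.27 and 1.32 in the authors' deposited table. NT5E, an ectonucleotidase, was called lower in both H6 comparisons and in neither of I4, and no such difference between clones was shown by a test. In I4, 3 of the 17 genes tested rose and 6 fell in experiment N, and 3 of the 16 tested rose and 5 fell in experiment B, against 15.7% and 14.0% of all genes called. In H6, 1 of 17 rose and 7 fell in experiment N, and 0 of 16 rose and 5 fell in experiment B, against 13.6% and 7.56%. The median of the mean log2 folds of the 16 genes was -0.16.

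Genes with the most similar 4 folds were sought among the 10306 others of at least 1 RPKM, by the Euclidean distance of the 4 log2 folds. For CTGF these were TMTC1, BCL6 and NEDD9, at distances of 0.157, 0.162 and 0.169. WWTR1 was closest to TCF7L2, NR2F1 and TEF, at 0.092, 0.104 and 0.11. LATS2 was closest to ZNF654, GPRC5A and BLCAP, at 0.0563, 0.0636 and 0.0668. CYR61, with small folds, was closest to MRRF, TSEN54 and FOSL1, at 0.0543, 0.0578 and 0.0602. Each distance rests on 4 comparisons, and all genes share the same libraries.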

How the data were processed

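Poly(A)-selected RNA of 23 PC-3 libraries was grouped by clone, experiment and doxycycline from the labels. The values used are the authors' own table of 4 comparisons. For each the authors give a level, the larger mean of the pair of groups, in RPKM; the unit is not named in the file and was read from the values, since level times GENCODE v29 exon length falls on fixed steps in very low genes (exon lengths matched for 21358 of 21463 rows). The same steps gave the depth, taken as 3 libraries per mean. The fold, a signed ratio or score, and the q-value are the authors' deposited values; no source used here states the aligner, the counting or the test, and the build is hg38, per the submitters' processing notes.

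Computed here with Python 3.11.15, pandas 2.3.3 and numpy 2.4.6: the lower group's level, log2 folds, calls at a q under 0.05, counts over lists, distances and motif positions. The code of the calling step was run on simulated q-values drawn on either side of the threshold. That run checks the code and says nothing about the calls themselves. No count test could be run without values per library. The 10 genes and the lists were chosen with earlier results of these data known. Genes named outside the members are PARG, the cell markers, list genes called in all 4 comparisons (at most 6 a list) and the 3 closest genes per member; other list genes named, and ANKRD1's promoter, were chosen after their values were seen. Of the row names, 27 were turned into dates; these entered the counts over all genes. Alternatives were a q under 0.01 or 0.1, a fold of at least 1.2, a clone or experiment alone, a level of at least 1 RPKM and centring on the median gene.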

Additional observations from a re-analysis of the deposited data

Results flagged for a closer look

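The 10 members, 29 other Hippo pathway genes and 17 other YAP target genes were searched for folds of opposite sign in the clones. For 3 of them, both experiments of one clone moved one way and both of the other the opposite way, with at least 1 call. The share of all genes that meet this rule was not computed. Folds of the clones did not overlap for 45.2% of the 10324 genes of at least 1 RPKM. The mean log2 fold of I4 minus H6 was -0.28 for AJUBA, 0.26 for NF2 and 0.75 for TAOK1. TAOK1, a kinase upstream of the MST kinases, was 1.46-fold (q = 5.99e-14) and 1.68-fold higher (q listed as 0) in I4 and 1.13-fold (q = 0.0896) and 1.02-fold lower (q = 1.00) in H6 in the authors' deposited table, in experiments N and B. NF2, which encodes merlin, was 1.14-fold (q = 0.0359) and 1.21-fold higher (q = 0.00132) in I4 and 1.01-fold and 1.02-fold lower (q = 1.00 in both) in H6 in the authors' deposited table. These differences were not tested, because 2 experiments against 2 cannot give an exact permutation p under 0.333, and the H6 folds are uncalled.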

How the results depend on the processing

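The number of members called in each comparison stayed within 1.5 times under a q under 0.01, a q under 0.1 and a fold of at least 1.2, and the number that rose in all 4 did so under these and within either experiment or clone. At a q under 0.01 that number was 2, without LATS2 (q = 0.0429 in I4 in experiment N of the authors' deposited table). Members that fell numbered 1 in I4 alone, TEAD4, against 0 in all 4. For other Hippo pathway genes the count of rises, 1 in all 4, was 0 at a fold of at least 1.2, 2 in experiment B alone and 3 in I4 alone, and the count of falls, 2 in all 4, was 4 in experiment N alone and 4 in I4 alone. For other YAP target genes the count of rises, 0 in all 4, was 1 in experiment N alone and 3 in I4 alone. These settings ask for calls in fewer comparisons or for larger folds. The share of all genes called under them was not computed, so these counts are not read as results about the members or lists. Relative to the median gene, the uncalled log2 fold of YAP1 in H6 in experiment B changed sign, to -0.0012, and the other 39 member folds kept theirs. Leaving out each replicate was not run, and no paired analysis was possible because the table used here holds no value per library. The lower group means of ANKRD1 rest on about 16.4 to 101 reads per library. Computed levels inherit any difference between the authors' fold and the ratio of means.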
